A study of Mus musculus with 26 samples.

Results

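Among clonal adipose cell lines derived from mouse inguinal fat, 4 have names that begin with the letter G: G10, G12, G18 and G23. They were chosen by clone name alone, and are 4 of the 23 inguinal clones and of the 26 clones profiled in the study. The reference was the other 19 inguinal clones, whose names begin with 10 other letters, and the 3 interscapular clones were left out. All clones of both groups were of the 129SVE strain from Taconic, with no genetic change named in the labels. Each had been fully differentiated into adipocytes and then given forskolin for 4 h, so no untreated culture stands beside them. Its dose is given as 10 micromolar for the series but as 10 millimolar for the single samples, which could not be settled here. Each clone is 1 line measured on 1 Affymetrix mouse array, so every p-value describes the spread among clones and not among repeated cultures. The labels do not say what the letters stand for, nor whether clones of 1 letter came from the same animal, dish or plating.

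Inguinal fat is a white depot in which some adipocytes, called beige, can switch on a thermogenic programme. Forskolin activates adenylyl cyclase, the enzyme that makes cyclic AMP, and so stands in for the noradrenaline that cold releases in fat. Cyclic AMP activates protein kinase A, which phosphorylates the transcription factor Creb, and the coactivator Ppargc1a and the uncoupling protein Ucp1, which lets mitochondria release fuel energy as heat, are induced along this route. Clonal lines separate cell-to-cell variety of the depot into cultures that can be measured one at a time.

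Ppargc1a and Ucp1 are the cyclic AMP targets whose levels are followed below, so their promoters are shown, each as the 250 bases before and 50 after the gene's start (RefSeq, GRCm38.p6). Capitals mark the motif TGACG or its reverse complement CGTCA, which is the first part of the cyclic AMP response element TGACGTCA. The Ppargc1a window lies at chr5:51567676-51567975 on the minus strand and the Ucp1 window at chr8:83290098-83290397 on the plus strand.
Ppargc1a: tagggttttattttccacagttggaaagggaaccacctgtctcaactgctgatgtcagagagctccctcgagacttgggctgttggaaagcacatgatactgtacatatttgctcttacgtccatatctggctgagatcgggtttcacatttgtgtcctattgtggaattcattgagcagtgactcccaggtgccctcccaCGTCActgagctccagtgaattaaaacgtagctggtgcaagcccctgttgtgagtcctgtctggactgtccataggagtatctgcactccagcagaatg
Ucp1: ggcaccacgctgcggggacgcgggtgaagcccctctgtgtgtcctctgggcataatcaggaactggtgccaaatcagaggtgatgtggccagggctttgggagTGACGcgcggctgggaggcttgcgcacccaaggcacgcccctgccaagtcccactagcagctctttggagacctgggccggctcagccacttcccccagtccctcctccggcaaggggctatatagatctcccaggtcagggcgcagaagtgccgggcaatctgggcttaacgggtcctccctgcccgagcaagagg
Each window held 1 match, beginning 49 bases before the start of Ppargc1a and 147 bases before the start of Ucp1. Among 32851 promoter windows of the same length, 20.8% held TGACG on either strand and 1.79% the full TGACGTCA. The match is a description of these letters and not evidence of a site.

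Values are log2(intensity + 16) of 1 probe set per gene, the one with the highest mean, and a difference is the mean of the G clones minus the mean of the other inguinal clones on that scale. Where 4 values and then 3 are given, they are those of G10, G12, G18 and G23, and the lowest, the median and the highest of the other clones. The added 16 makes differences of dim genes too small. The 12354 genes kept lay above the median of their array in at least 4 inguinal clones, and list genes called measured are among them. The question asked of them was whether clones sharing this letter differ from the rest. No gene passed the limma test at an adjusted p of 0.05 (percent called 0 over all genes, smallest adjusted p 0.997), and limma with array weights called 1. At an unadjusted p under 0.05 there were 573 genes, or 4.64% of all, close to the share that an even spread of p-values gives. Of these, 493 were higher in the G clones (3.99% of all genes) and 80 lower (0.648%). With the letter as a random block, which allows for likeness among clones of 1 letter, 0 genes passed and 138 were at an unadjusted p under 0.05 (limma).

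The tilt towards higher values depended on scaling and on the filter on low values. Over all 12354 genes the median difference was 0.057, and 63.27% of differences were positive. That share was 55.8% with arrays scaled to equal medians and 50.1% with quantile normalization. With equal medians, 72.1% of the genes at an unadjusted p under 0.05 were higher in the G clones, and with quantile normalization 63.6%, against 86% as deposited. Without the filter, 57.6% of the differences of 18193 genes were positive. Of those at an unadjusted p under 0.05 (limma), 72.7% were then higher in the G clones. The 95% confidence interval of a difference had a median half-width of 0.363, and for 11328 genes (91.69%) the whole interval lay within 1 log2 unit of 0. For the remaining genes the interval reached further from 0.

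**Figure D1:**
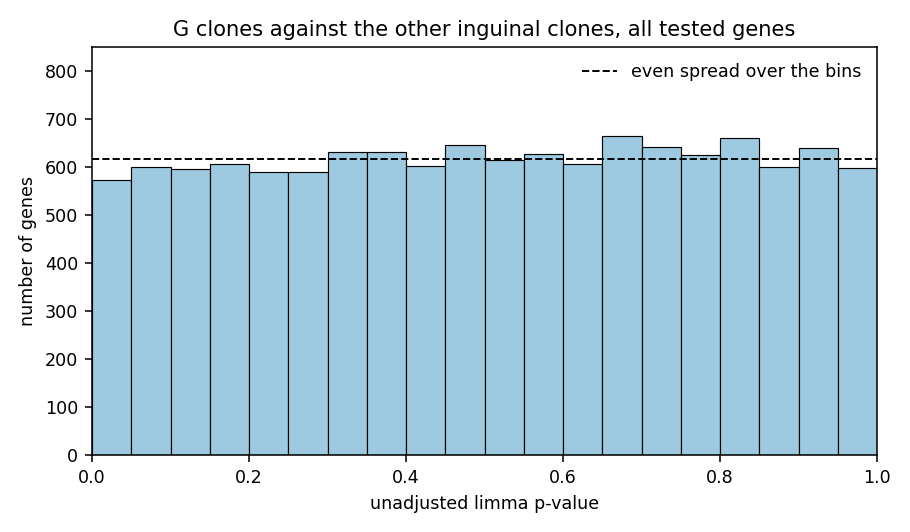
Histogram of the unadjusted limma p-values of 12354 genes for the G clones (n = 4) against the other inguinal clones (n = 19), with the number of genes on the vertical axis and the dashed line at an even spread. The lowest bin, p under 0.05, holds 573 genes and does not stand above the others.

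In 3 genes all 4 G clones lay above all 19 other clones, which is 0.0243% of the genes, and in 0 genes below them. Napb, a protein of vesicle fusion, had 8.21 in G10, 8.21 in G12, 8.28 in G18 and 8.20 in G23, against 6.83, 7.60 and 8.07 as the lowest, median and highest of the other clones. The G clones spanned 0.085 and lay above every other clone, and the nearest clones of the groups were 0.12 apart (difference 0.71, limma unadjusted p = 0.000217, adjusted p = 0.997). The dimmer probe sets of Napb gave differences of -0.16 to 0.39, so the separation belongs to 1 of its probe sets.

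Hnrnph3, an RNA-binding splicing protein, had 10.12, 10.02, 9.96 and 10.15 in G10, G12, G18 and G23, against 9.19, 9.60 and 9.96 (lowest, median, highest) in the others. It had the smallest p of all genes (difference 0.50, 95% interval 0.27 to 0.72, limma unadjusted p = 0.000129, adjusted p = 0.997), and the groups were 0.003 apart at their nearest. Mosmo, a membrane protein that dampens Hedgehog signalling, had 9.67, 9.85, 9.71 and 9.64, against 8.70, 9.38 and 9.63, a gap of 0.009. Both gaps are far smaller than the SD among the other clones, which was 0.18 for Hnrnph3 and 0.22 for Mosmo. A dimmer probe set of Mosmo gave a difference of 0.14, against 0.34 for the one used, and there the groups overlapped.

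The next genes by moderated t, none of which passed, were Zfp963 and Zfp110, both zinc finger genes, Mybl1, a relative of the Myb oncogene, and Ddit4l, an inhibitor of mTOR signalling. Ddit4l had 8.17, 7.43, 8.48 and 7.57 in G10, G12, G18 and G23, against 5.26, 6.44 and 8.02 in the others (difference 1.29, limma unadjusted p = 0.00142, adjusted p = 0.997). All 4 G clones were well above the median of the others, and the ranges overlapped. Tnfaip3, a brake on NF-kappaB signalling, had 10.46, 11.27, 10.87 and 10.21, against 7.99, 9.71 and 11.06 (difference 1.01). The others in the leading 12 were Niban3, Slc5a5, Ccdc122, Pinx1 and Cep44, with differences of 0.46 to 0.74. Slc5a5 was dim, and was above the array median in 3 G clones and 1 other clone only. It thus passed the filter on low values only through the G clones, and its place among these genes is no evidence.

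On the lower side the first by moderated t was Myadml2, at 5.30, 5.23, 5.10 and 5.31 in the G clones, against 5.17, 5.95 and 6.28 in the others (difference -0.59, limma unadjusted p = 0.00175, adjusted p = 0.997). All 4 G clones lay below the array median, so the size is approximate. Kctd8, a partner of GABA-B receptors, had 5.07, 5.71, 5.74 and 5.47, against 5.18, 6.65 and 8.51, and again no G clone was above the array median. Gnai1, an inhibitory G protein subunit that lowers cyclic AMP, had 8.97, 9.32, 9.07 and 9.71, against 9.08, 9.82 and 10.63 (difference -0.57). Tapbp, which loads peptides on class I molecules, had 11.08, 11.36, 10.81 and 11.30, against 11.14, 11.47 and 12.05 (difference -0.42). The other 8 were Gm8273, Scrn2, Ttyh2, Prrt3, Lrp3, Ksr2, Lce3f and Ccdc184, with differences of -0.68 to -0.35. For Prrt3, Ksr2 and Lce3f too, no G clone was above the array median. Dimmer probe sets gave smaller differences for Myadml2 (-0.005) and Kctd8 (-0.36), and another probe set of Scrn2 at a like level gave the opposite sign (0.19).

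Differences of at least 1 log2 unit were found in 28 genes, 22 higher and 6 lower in the G clones. The extremes were chosen after their values were seen. Ccn2, a matrix protein of connective tissue also called connective tissue growth factor, had 9.76, 9.73, 11.22 and 8.70 in G10, G12, G18 and G23, against 5.55, 7.56 and 10.86. G18 was the highest of all 23 clones, but 4 other clones were above G23 (difference 2.11, 95% interval 0.74 to 3.47, limma unadjusted p = 0.00394, adjusted p = 0.997). Csf2rb, the shared receptor subunit of GM-CSF and related cytokines, had 6.30, 7.34, 5.66 and 7.20, against 5.52, 8.58 and 11.72 (difference -1.88, interval -3.58 to -0.18). Within chip lot 1, which holds G23 and I2 alone, Ccn2 differed by -2.15 and Csf2rb by 0.31 (G23 minus I2). The dimmer probe set of Csf2rb gave -1.25, and 13 other clones were above the highest G clone.

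**Figure D2:**
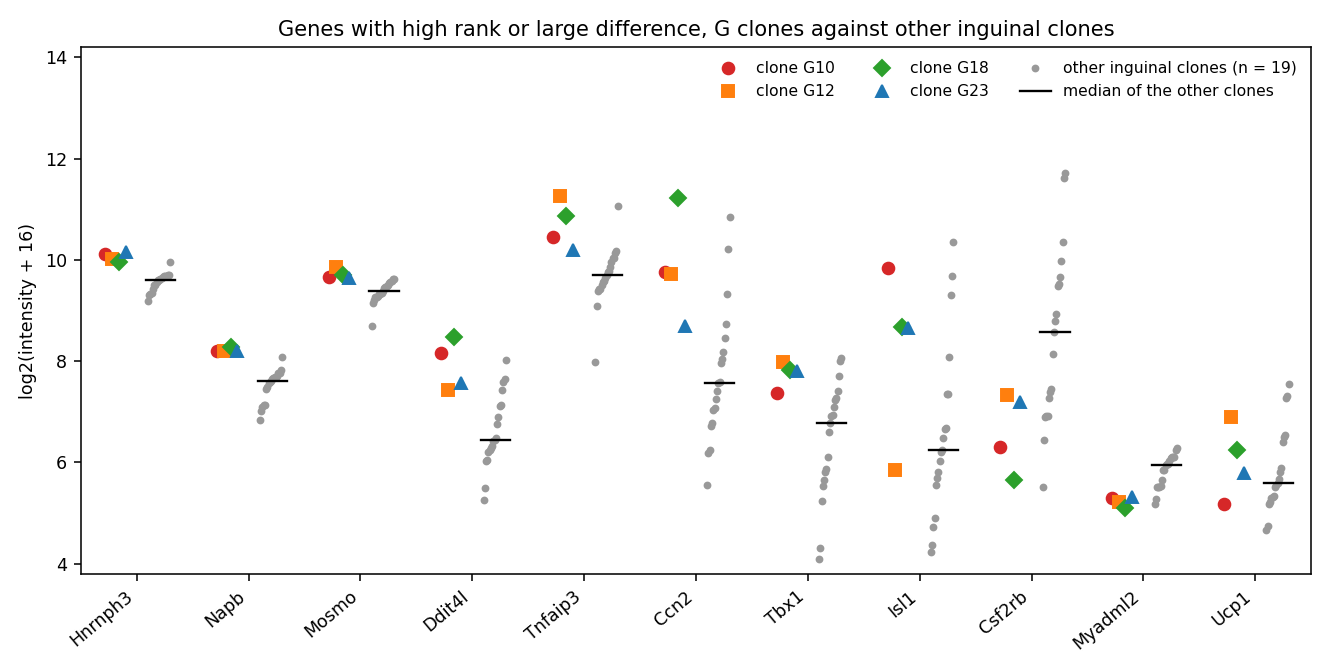
Level of 11 genes, as log2(intensity + 16), in G10, G12, G18 and G23 (coloured symbols) and in the other inguinal clones (grey points, sorted, n = 19; bar, their median). Hnrnph3, Napb and Mosmo show no overlap between the groups, the other genes do, and none passed the limma test.

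Ucp1 had 5.18 in G10, 6.89 in G12, 6.25 in G18 and 5.79 in G23, against 4.66, 5.59 and 7.55 as the lowest, median and highest of the other clones. In intensity units this was 20.4, 102.4, 59.9 and 39.3, against 9.2, 32.0 and 170.8. G12 was 4th and G10 20th of the 23 clones, and only G12 and G18 lay above the array median. The difference of 0.17 (95% interval -0.71 to 1.04) was well inside the spread among clones, 6.03 ± 0.72 (SD, n = 4) against 5.86 ± 0.85 (SD, n = 19), with p = 0.724 in an exact two-sided permutation test over the 8855 ways to choose 4 of 23 clones. Without G12 the difference was -0.12, so its sign rested on that clone.

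Ppargc1a had an SD of 1.31 among the G clones and 1.38 among the others. It had 7.05, 10.07, 7.73 and 8.73 in G10, G12, G18 and G23, against 5.62, 8.49 and 10.06, and G12 was the highest of all 23 clones. Dio2, the deiodinase that makes active thyroid hormone, ran in another order, at 7.95, 6.82, 6.65 and 7.16, against 6.13, 7.54 and 9.11. G10, lowest of the 4 for Ucp1 and Ppargc1a, was highest for Dio2. Of 18 measured thermogenic genes, 7 had a positive difference and 11 a negative one, 0 passed, and their median difference was -0.09. Cox8b, a respiratory chain subunit of brown fat, and Ebf2, a brown fat transcription factor, lay below the array median in all 4 G clones. Cidea, which did not pass the filter on low values, did too. Most other clones were likewise below it: of the 19, 4 were above it for Cox8b, 6 for Ebf2 and 1 for Cidea. Cox7a1 was 6.78, 7.76, 6.93 and 7.57, against 5.99, 7.55 and 10.88, so no G clone reached the high levels seen in some other clones.

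Of 9 measured beige markers, a list drawn from work on these same lines and so not independent evidence, 6 were positive and 0 passed, with a median of 0.09. Tbx1, a T-box transcription factor in that list and singled out after its values were seen, had 7.38, 7.99, 7.83 and 7.81 in G10, G12, G18 and G23, against 4.10, 6.78 and 8.06. The G clones spanned 0.61 log2 units and 4 other clones were above the lowest G clone (7.75 ± 0.26 against 6.46 ± 1.15, limma unadjusted p = 0.0246, adjusted p = 0.997). Tmem26, a transmembrane protein of that list, had 8.56, 7.78, 8.49 and 8.50, against 6.39, 8.15 and 9.51. Slc36a2, an amino acid transporter, split the 4 clones, with 7.33 and 7.91 in G10 and G18 and 10.19 and 10.12 in G12 and G23, against 6.88, 9.83 and 10.77 in the others.

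That split recurred across adipocyte genes. The mean of 22 general adipocyte genes was 8.77 in G10, 10.41 in G12, 9.43 in G18 and 10.34 in G23, against 7.997, 10.13 and 11.35. G12 and G23 stood 10th and 11th of the 23 clones, while G18 was 17th and G10 21st. Adipoq, the secreted adipokine adiponectin, had 11.26 and 11.45 in G10 and G18 and 13.60 and 13.61 in G12 and G23, against 9.19, 13.33 and 14.13 in the others. Pparg, the master regulator of fat cell formation, had 7.62, 9.81, 9.31 and 9.76, against 7.39, 10.03 and 11.13, with G10 close to the lowest clone. Cidec, a lipid droplet protein, had 6.34, 9.80, 8.20 and 9.64, against 5.46, 8.82 and 10.93. Of the 22 genes 5 differences were positive, 17 negative and 0 passed, with a median of -0.28. That median rested on G10 and G18: it was 0.014 without G10 and -0.098 without G18. Of the 8 genes of the shorter adipocyte marker list, Plin1 was not analysed here, and the other 7 each lay above the array median in all 4 G clones, with 4 of the 7 above it in every other clone. The mean of these 7 was 8.48, 10.63, 9.497 and 10.56, against 7.39, 10.28 and 11.46, lowest of the 4 in G10. All 7 are also in the general adipocyte list, so their order is not independent evidence of the split.

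Lipid and mitochondrial fuel lists split the clones likewise. The lipid synthesis and lipolysis lists share genes with the general adipocyte list. Lipid synthesis averaged 9.26, 10.42, 9.81 and 10.39 in G10, G12, G18 and G23, against 9.09, 10.10 and 11.06, with 8 of 19 differences positive. In it Scd1, the fatty acid desaturase, had 11.92 in G10, below the lowest other clone at 12.07, and 13.54, 13.33 and 13.81 in G12, G18 and G23. Lipolysis and lipid droplet genes averaged 8.93, 10.34, 9.72 and 10.53, against 8.26, 10.09 and 11.33. Fatty acid oxidation averaged 9.46, 10.15, 9.82 and 10.19, against 9.51, 10.06 and 10.67, and TCA cycle genes 10.58, 10.99, 10.82 and 10.91, against 10.59, 10.84 and 11.37. G10 was the lowest of all 23 clones in both. Without G10 the median difference turned positive in each of these 4 lists, at 0.117 for lipid synthesis, 0.126 for lipolysis, 0.046 for fatty acid oxidation and 0.03 for the TCA cycle, against -0.054, -0.156, -0.103 and -0.074 with it. The respiratory chain did not follow: 38 genes averaged 11.71 to 11.84 in the G clones, against 11.47, 11.75 and 12.42. No gene of these lists passed, and G12 and G23 ranked between 6th and 11th of 23 in each.

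**Figure D3:**
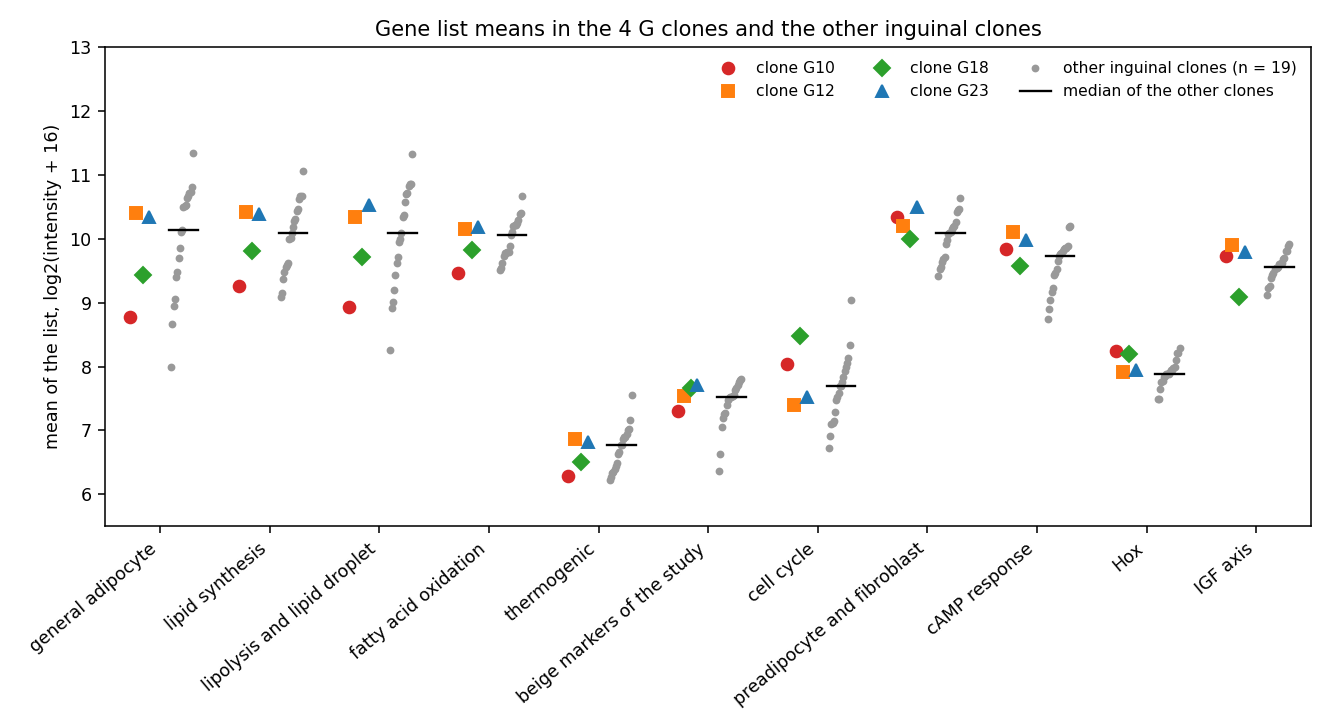
Mean level of 11 gene lists, as log2(intensity + 16), in the 4 G clones (coloured symbols) and the other inguinal clones (grey points, sorted, n = 19; bar, their median). In the adipocyte and lipid lists G12 and G23 sit near the median of the others, and G10 and G18 below it, while in the cell cycle list G18 and G10 sit above it.

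Of the 12 genes with the largest SD among the 4 clones, 7 followed the same split. They were picked for their spread among these same clones, so their order is not independent evidence of it. Car3, a carbonic anhydrase abundant in mature fat, had 8.01 and 9.73 in G10 and G18 and 13.12 and 12.28 in G12 and G23, against 6.32, 11.29 and 14.19 in the others. Thrsp, a lipogenic factor, had 6.34, 10.33, 7.14 and 10.07 in G10, G12, G18 and G23, against 5.19, 9.56 and 12.20. Mrap, the accessory protein of the ACTH receptor, had 5.61, 9.29, 4.87 and 7.80, against 4.49, 7.80 and 9.53. In these, and in Mup3, Car2, Cyp2e1 and Ankef1, both G12 and G23 exceeded both G10 and G18. The dimmer probe sets of Car3 kept this order, but at least 1 dim probe set each of Mup3, Thrsp, Mrap and Ankef1 did not. Car2, another carbonic anhydrase, and Ankef1 were lowest of all 23 clones in G10, at 5.05 and 4.47.

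The remaining 5 of these 12 genes did not follow it. Crabp1, a retinoic acid binding protein, ran the other way, with 11.84, 7.01, 9.84 and 8.78, against 6.21, 9.72 and 12.49. Chl1, a neural cell adhesion molecule, was high in G10 (9.96) and G23 (10.24) and low in G12 (7.14) and G18 (6.30), against 5.29, 8.56 and 10.42. Serping1, the C1 complement inhibitor, had 9.90, 10.80, 6.65 and 9.81, against 8.31, 11.002 and 12.69, and G18 was more than 1 log2 unit below every other inguinal clone. G18 was also the lowest of the 4 for Wfdc17 (8.34, with 11.53 to 12.45 in the others of its letter) and for Prr9 (6.49, with 8.25 to 10.40).

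**Figure D4:**
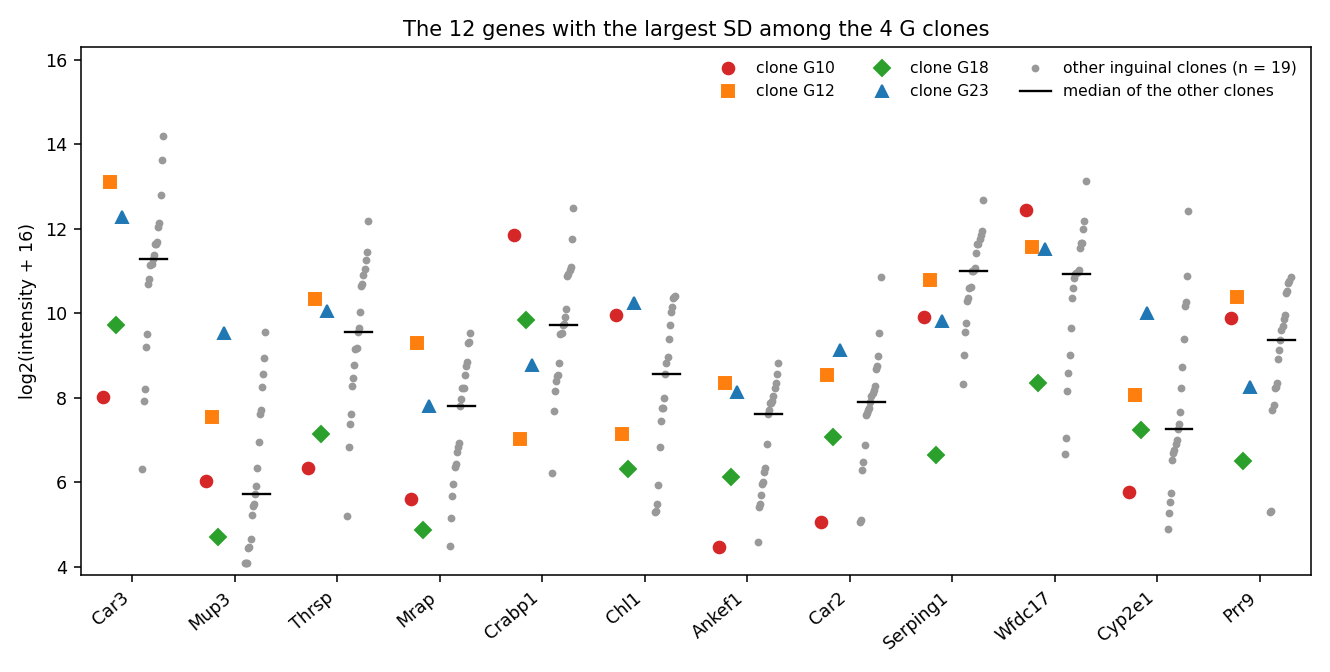
Level of the 12 genes with the largest SD among the 4 G clones, as log2(intensity + 16), in each G clone (coloured symbols) and in the other inguinal clones (grey points, sorted, n = 19; bar, their median). From Car3 to Mrap, G12 and G23 lie above G10 and G18, whereas Serping1, Wfdc17 and Prr9 are lowest in G18.

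Whole profiles split in pairs too. Each gene was centred on its mean over the 23 inguinal clones, and Pearson correlations were taken across 12354 genes, which are not independent replicates, so they are given as a description. G10 and G18 correlated at 0.32 and G12 and G23 at 0.33, while the other 4 pairs lay between -0.13 and -0.01. The mean of the 6 pairs was 0.06. The 11 pairs of clones sharing another letter averaged 0.20, among them 0.31 over the 3 pairs of E, 0.07 over the 3 pairs of X and 0.40 for the pair of A. The pairs within B, E, F and M, and X7 with X9, shared scan session, scanner and chip lot, which no pair of G clones did. Letter and batch cannot be told apart in those pairs. The 236 pairs of different letters averaged -0.06. Centring gives correlations slightly below 0 to unrelated clones, and the same clones enter many pairs.

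G12 and G23 were each other's nearest clone. G18 was nearest to I2 (0.41) and G10 to I2 (0.33), a clone that was lowest of the depot in the general adipocyte list. G10 and G18 were on the same chip lot, and G12 and G23 shared a scanner but neither lot nor scan session. The adipocyte means of G12 and G23 were 0.06 apart and those of G10 and G18 0.66, while the 4 pairs with low correlation were 0.92 to 1.64 apart. The part of differentiation in these correlations was not tested.

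**Figure D5:**
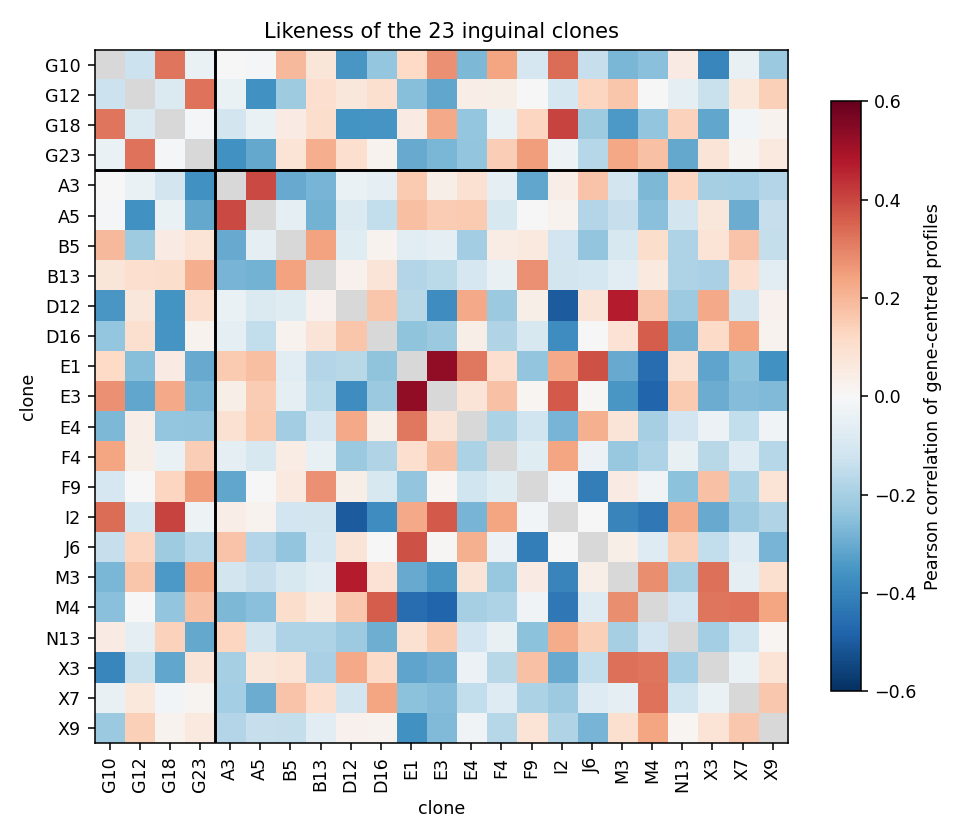
Pearson correlation of gene-centred profiles between all pairs of the 23 inguinal clones (colour scale from -0.6 to 0.6, grey diagonal left out), with the G clones in the first 4 rows and columns, set off by lines. Within the G block, G10 with G18 (0.32) and G12 with G23 (0.33) are positive and the other 4 pairs are near 0 or negative.

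By whole profile G23 and G12 lay nearest the middle of the depot, with G18 7th and G10 11th of the 23 clones. The root mean square distance of a clone from the mean of the other clones was 0.30 log2 units in G23 and 0.31 in G12, the lowest and second lowest of the 23, 0.38 in G18 and 0.39 in G10, against 0.33, 0.41 and 0.59 in the others. The median SD per gene was 0.21 among the G clones and 0.34 among the others, a difference that was not tested. Few genes set a G clone apart. Counting genes at least 1 log2 unit beyond all 22 other inguinal clones, there were 2 in G10, 1 in G18 and 0 in G12 and in G23, against 0, 4 and 62 in the others. The 2 of G10 were Vgf, a secreted neuropeptide precursor, at 8.39 (next highest clone 6.64), and Tslp, an epithelial cytokine, at 8.20 (next 6.92).

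The cyclic AMP response list averaged 9.84, 10.12, 9.57 and 9.98 in G10, G12, G18 and G23, against 8.75, 9.73 and 10.20. Of its 25 measured genes, 21 had a positive difference (19 with quantile normalization), beside 63.27% and 50.1% over all genes, and 0 passed or were at an unadjusted p under 0.05 (limma). The list's median difference was 0.20, and 0.14 to 0.33 leaving out 1 G clone. Dusp1, a phosphatase that switches off MAP kinases, had 12.41, 12.95, 12.57 and 13.36, against 11.57, 12.63 and 13.43. Cebpd, a transcription factor of early fat cell formation, had 13.08, 12.63, 12.88 and 13.16, against 11.46, 12.54 and 13.37. In both genes the G clones lay inside the range of the others.

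Egr1, Gadd45b and Cxcl2 are not members of that list and were singled out after their values were seen. Egr1, an immediate-early transcription factor, had 12.90, 12.67, 12.80 and 13.21, against 8.90, 11.60 and 13.38 (difference 1.48, limma unadjusted p = 0.0586). Gadd45b, a stress-induced gene, had 12.12, 11.05, 10.82 and 10.02, against 8.58, 9.79 and 11.37 (difference 1.09, limma unadjusted p = 0.0063). Cxcl2, a neutrophil chemokine, had 12.81, 12.13, 12.06 and 11.38, against 8.08, 10.41 and 12.94 (difference 1.63, limma unadjusted p = 0.0124). The groups overlapped in all 3 genes, and each had an adjusted p of 0.997 (limma).

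Cell cycle genes ran opposite to the adipocyte genes among the 4 clones. Their mean was 8.03 and 8.48 in G10 and G18 (6th and 2nd of 23) and 7.40 and 7.52 in G12 and G23 (17th and 14th), against 6.73, 7.70 and 9.05 in the others. Of 31 measured genes, 29 had a positive difference (23 with quantile normalization) and 0 passed. The median difference of 0.22 rested on G18 and G10: it was -0.001 without G18 and 0.12 without G10. Over all genes 63.27% of differences were positive, and 50.1% with quantile normalization. Mki67, a marker of dividing cells, had 7.82, 6.72, 8.37 and 7.04, against 5.56, 7.43 and 9.67. Mcm7, a subunit of the replicative helicase, had 10.76, 10.72, 11.24 and 10.74, against 9.83, 10.29 and 11.29 (difference 0.47).

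Hox genes record position along the body axis in fibroblasts and preadipocytes. Of 20 measured Hox genes, 19 had a positive difference (13 with quantile normalization), beside 63.27% and 50.1% over all genes. The median was 0.12 and 0 passed. Hoxc10, which marks the posterior trunk, was even, at 10.12, 10.10, 10.26 and 10.01, against 9.40, 9.99 and 10.74. Hoxc13, the most posterior of that cluster, had 7.65, 7.01, 7.02 and 6.84, against 5.19, 6.08 and 7.46 (difference 0.88, limma unadjusted p = 0.00623, adjusted p = 0.997). Only 2 other clones were above its lowest G clone.

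Limb and trunk patterning genes had 21 of 26 positive differences (20 with quantile normalization), a median of 0.21 and 0 calls. Over all genes the positive share was 63.27%, and 50.1% with quantile normalization. At an unadjusted p under 0.05 (limma), 2 of the list were higher, Foxf1 and Irx3, and 1 lower, Hand1. Foxf1, a forkhead factor of lateral mesoderm, had 9.67, 9.27, 9.62 and 9.10, against 8.01, 8.80 and 9.77 (difference 0.66, limma unadjusted p = 0.00859, adjusted p = 0.997). Isl1, a homeobox factor of limb and cardiac progenitors, had 9.84 in G10, 5.84 in G12, 8.68 in G18 and 8.65 in G23, against 4.22, 6.25 and 10.35 (difference 1.64, limma unadjusted p = 0.0728, adjusted p = 0.997). G12 was below the array median while the other three were among the 6 highest clones, so clones of the letter do not share one Isl1 state. Hoxc13, Foxf1 and Isl1 were singled out after their values were seen.

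No matrix or stromal gene passed. Collagens and structural matrix genes averaged 10.92 to 11.39 in the G clones, against 10.35, 11.28 and 11.53, with 19 of 31 differences positive. Preadipocyte and fibroblast genes averaged 10.35, 10.21, 10.00 and 10.50, against 9.43, 10.09 and 10.64, with 13 of 18 positive. Both counts stand beside 63.27% positive over all genes. Timp3, an inhibitor of matrix proteases singled out after its values were seen, had 11.86, 10.44, 11.32 and 11.53, against 6.91, 9.64 and 12.51 (difference 1.68, limma unadjusted p = 0.0354). Its dimmer probe sets gave 0.79 to 1.63, and its adjusted p was 0.997 (limma).

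Secreted factors divided by clone. The adipokine list had the lowest median of all 41 lists, -0.40, with 2 of 13 differences positive and 0 passing, and its median was -0.14 without G10 and -0.20 without G18. Its means were 9.65, 10.73, 9.79 and 10.73 in G10, G12, G18 and G23, against 9.04, 10.85 and 11.54. The split of the adipocyte genes was seen again, in a list that shares genes such as Adipoq with them. Apln, the peptide apelin, had 8.28, 9.61, 7.997 and 8.76, against 7.31, 10.31 and 11.17 (difference -1.20, limma unadjusted p = 0.0283), and Rarres2, chemerin, had 12.86, 12.63, 12.61 and 12.83, against 12.22, 13.31 and 13.93 (difference -0.51). Complement and acute phase genes averaged 9.11, 9.92, 8.73 and 10.12, against 7.77, 9.95 and 10.76. The IGF axis was lowest of all 23 clones in G18 (9.09), where the binding protein Igfbp4 had 10.44, beside 12.46, 12.32 and 12.998 in G10, G12 and G23. Imprinted genes averaged highest of all clones in G23 (9.16), where the growth factor Igf2 had 8.28, beside 6.95, 7.01 and 7.01 in G10, G12 and G18 and 6.38, 7.08 and 7.68 in the others. A dimmer probe set of Igf2 gave 4.15 in G23, below its 4.65 in G10.

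Across all 41 lists, medians ran from -0.40 to 0.31, 25 above 0 and 16 below, and 0 of 622 listed genes passed (limma), with 23 (3.7%) at an unadjusted p under 0.05, beside 4.64% over all genes. Unfolded protein and Atf4 response genes had 15 of 22 positive differences (median 0.30), with 2 genes higher and 1 lower at an unadjusted p under 0.05 (limma). Circadian clock genes had 14 of 15 positive, or 12 with quantile normalization (median 0.22). The share over all genes was 63.27%, and 50.1% with quantile normalization. Interferon response genes averaged 9.68 to 10.01 in the G clones, against 9.27, 9.85 and 10.84, and chemokines 10.32 to 10.65, against 10.01, 10.47 and 11.01. Antigen presentation genes had 3 of 12 positive.

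Of the marker lists for other cell types, none held a gene that passed. Smooth muscle and pericyte genes had the highest median of all lists, 0.31, with 7 of 9 positive and 0 passing. Their list mean was 7.84 to 8.26 in the G clones and 6.57 to 8.45 in the others, and Acta2, smooth muscle actin, had 12.998, 13.25, 12.84 and 12.70, against 10.23, 12.37 and 13.55. Macrophage and leukocyte markers averaged 6.99 to 7.38 in the G clones and 6.70 to 7.76 in the others (8 of 13 used). Endothelial ones averaged 6.23 to 6.71 and 5.88 to 6.77 (3 of 10). Skeletal muscle ones averaged 6.47 to 6.68 and 6.14 to 6.87 (5 of 17). All members of these lists had a probe set, and those not used failed the filter on low values. Mesothelial, Schwann and neural, and bone and cartilage lists lay within the range of the other clones as well. The part of these markers in the differences above was not tested.

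No batch held all 4 G clones. Inguinal arrays had medians of 40.4 to 45.8 and means of 417 to 511 intensity units. G10, G18 and G23 were read in scan session 1 with 14 other clones and G12 in session 2, and G10 on scanner 1 with 11 others and the other three on scanner 2 with 8. The 4 clones came from 3 chip lots. With scan session, scanner, chip lot or fluidics station as a block, 0 genes passed (limma), with 408 to 662 at an unadjusted p under 0.05. Limma also called 0 genes within session 1 (3 G clones against 14), scanner 2 (3 against 8) and chip lot 3 (2 against 9), with 432, 383 and 729 at an unadjusted p under 0.05. Session 2, scanner 1 and chip lots 1 and 4 held 1 G clone each, which leaves little to test. The Ucp1 difference was 0.62 with fluidics station as a block and 0.45 within scanner 2, but -0.13 within session 1 and -0.20 within chip lot 3.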

How the data were processed

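Deposited intensity values, 1 linear value per probe set and array made by the authors, were used for 23 inguinal clones; the labels name no probe summary and no scaling between arrays. Array means and medians were alike but not equal. The experiment files, deposited as name and value pairs of the instrument run, served only for scanner, chip lot, fluidics station and scan session, the last built from scan days at most 4 apart. Of 45101 probe sets, 34945 carried 1 symbol in the platform annotation, 932 several and 9160 none, beside 64 controls; 34741 matched RefSeq. Of 18193 named genes, the 12354 above their array median in at least 4 inguinal clones were tested as log2(intensity + 16) with limma 3.58.1 in R 4.3.3, two-sided, with Benjamini-Hochberg adjustment and a threshold of 0.05. No 2 arrays were copies (highest correlation 0.9872). The number of arrays limits the precision.

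Members and gene lists were chosen with earlier results of these data known. Named genes were the 12 with the highest moderated t each way, genes without overlap, the 12 with the largest SD among the G clones, Ucp1, and up to 4 list members with the highest mean; others are named, for levels or as extremes of their list or clone, after their values were seen. These are Ccn2, Csf2rb, Cxcl2, Timp3, Isl1, Tbx1, Egr1, Gadd45b, Hoxc13, Foxf1, Apln, Cidec, Dio2, Cox7a1, Cox8b, Ebf2, Cidea, Mki67, Igf2, Vgf and Tslp. Scripts were tested on simulated data. Alternatives covered the pseudocount, scaling, probe set rule, filter, batches, letter as a random block, array weights and leaving out clones. Figures were drawn with matplotlib 3.10.9.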

Additional observations from a re-analysis of the deposited data

Results flagged for a closer look

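Of 113 values screened among the 4 G clones (genes named here and list means), 4 went past Dixon's 95% critical value. In each of them 1 clone lay farther from the rest than that value allows. Chance alone puts about 1 of 20 independent groups past it, and 4 of 113 is not above that share. Many of these genes were named for their values in these clones, and lists share genes. That share is therefore only a rough guide. Igf2 was 8.28 in G23, against 6.95 to 7.01 in the others of its letter. Mcm7 was 11.24 in G18, against 10.72 to 10.76. Tmem26 was 7.78 in G12, against 8.49 to 8.56. Napb was 8.28 in G18, against 8.20 to 8.21. All 41 list means stayed inside the limit.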

How the results depend on the processing

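Of 43 alternatives with at least 2 G clones, many of them differing by 1 clone, limma called 0 genes in 42; with array weights it called 1 (Hnrnph3, adjusted p = 0.014). The 3 with 1 G clone also called 0 but can hardly call any, and session 2 and chip lot 4 hold the same arrays. Genes at an unadjusted p under 0.05 numbered 138 with the letter as a random block and 1537 with array weights, the lowest and highest. Genes with all G clones above the others numbered 1 with equal medians and with quantile normalization, and 5 with the mean of probe sets. Without 1 clone they numbered 3 to 14 above and 0 to 2 below, of 12354 genes. Leaving out a G clone gave 14 above without G10 or G12, 11 without G18 and 6 without G23. Those counts set 3 clones against 19, where separation comes about more easily (1540 ways to choose, against 8855 with all 4). Leaving out another clone gave 7 without B13, 5 without E3 and 9 without I2. Ucp1 reversed to -0.13 within session 1, -0.68 within scanner 1 and -0.20 within chip lot 3, gave -0.12 to 0.45 leaving out 1 G clone, and was 0.62 with fluidics station as a block and 0.71 within session 2. Within chip lot 1, which holds only G23 and I2, these reversed: Apln 0.78, Ccn2 -2.15, Csf2rb 0.31, Ddit4l -0.019, Foxf1 -0.66, Gadd45b -0.36, Gnai1 0.63, Hoxc13 -0.45, Kctd8 0.13, Mybl1 -0.11, Tbx1 -0.25, Timp3 -0.98 and Ttyh2 0.039. Within session 2, and within chip lot 4, both with G12 as the one G clone, Isl1 gave -0.41 and Lce3f 0.12. The cause was not tested. The mean correlation of the G clones was 0.07 with quantile normalization, 0.06 over the more variable genes, and 0.036 to 0.09 leaving out 1 clone, an alternative chosen after seeing the data. Their median SD was 0.21 with quantile normalization and 0.19 to 0.22 leaving out 1 clone. No paired analysis was possible because the labels number no replicates and clone numbers pair nothing. Dim genes such as Ucp1 lie near the array median, where differences are compressed.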
